A study of Mus musculus with 8 samples.

Results

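The nuclear genes for the subunits of oxidative phosphorylation were followed in mouse liver 8 h after acetaminophen, in 4 samples from 80-week males and 4 from 8-week males. The genes were taken by the start of their name on the array (Ndufa, Ndufb, Ndufc, Ndufs and Ndufv for complex I, Sdha to Sdhd for complex II, Uqcr and Cyc1 for complex III, Cox4 to Cox8 for complex IV, Atp5 for complex V). This gave 101 genes with 156 probes, of 36666 gene names with 56605 probes. The names also took in 13 assembly factors or supercomplex factors and 3 genes that are pseudogenes or copies by their names, which left 85 subunit genes. Of the 3, Ndufb1-ps is the array's name for the RefSeq gene Ndufb1 of complex I, and it was kept apart by that name alone. Of these, 8 complex IV genes are isoforms or relatives with restricted tissue expression, and the other 77 are described together as the liver's subunits.

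All 8 samples were total RNA from liver of males given acetaminophen, a drug whose reactive metabolite damages hepatocyte mitochondria, and each was read on 1 single-colour Agilent array. Neither the dose nor the strain is given in the sources used here. They also do not say that the 4 samples of an age were separate animals, and if they were not, the p-values reflect technical spread. The 80-week samples lay in row 2 and the 8-week samples in row 1 of 1 slide, and the effects of row and of age cannot be told apart. Livers without the drug were not analysed here.

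Complex I oxidises NADH and complex II oxidises succinate, and both pass electrons through ubiquinone to complex III, from there by cytochrome c to complex IV, which reduces oxygen. Complexes I, III and IV pump protons out of the matrix, and complex V, the ATP synthase, uses their return to make ATP. Hepatocytes are rich in mitochondria, and most subunits are encoded in the nucleus while a small set is encoded in mitochondrial DNA.

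A level below is the log2 intensity of a gene's brightest probe minus the 75th percentile of its array, and a difference is the 80-week mean minus the 8-week mean of such levels. No levels are compared between genes. Of the 101 genes, 98 entered the test, for which 4 of the 8 arrays had to be well above background, and 97 of them were so on all 8 arrays. Cox6a2, Cox7b2 and Cox8c were not tested. The arrays' 75th percentiles ran from 154.7 to 264.8 intensity units at 80 weeks and from 178.2 to 352.8 at 8 weeks, and 43.3% to 50.4% of probes were well above background. All 8 hepatocyte markers examined were well above background on every array. In whole-tissue samples, fewer cells of a type and less RNA per cell cannot be told apart.

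The comparison asked whether the older livers held more or less of the subunit transcripts once the drug had been given. None of the 98 tested genes passed an adjusted p of 0.05 (limma with Benjamini-Hochberg adjustment over 17565 genes), where 0.33% of all genes were called higher and 0.0285% lower at 80 weeks. The lowest adjusted p among them was 0.226, for Ndufaf5, an assembly factor of complex I. At an unadjusted p under 0.05, 1 gene had a positive difference (Ndufaf5) and 2 had negative differences (Ndufaf4 and Cox6b2), against 7.91% and 6.14% of all genes tested. The 2 age groups did not overlap for 1 of the 98 genes, Ndufaf4, where its 80-week arrays were the lower ones. Over all genes tested, 8.38% had groups that did not overlap, 4.62% with the 80-week arrays higher and 3.76% with them lower.

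Signs leaned to one side nonetheless. The difference was positive for 89 genes and negative for 9, with a median of 0.14, whereas 52% of all genes tested had a positive difference and their median was 0.02. The medians by complex were 0.21 for complex I, 0.27 for complex II, 0.14 for complex III, 0.04 for complex IV and 0.08 for complex V, of which those of IV and V were negative with median scaling or no scaling between arrays. Those scalings moved the median of all genes by -0.10, and relative to it the medians of IV and V stayed at 0.03 and 0.06. The signs of the genes are not independent of each other, because the subunits moved together from array to array, and they changed with the 8-week arrays that were included, as given below. Each of the 77 liver subunits had a 95% interval that spanned 0. The widest limits were -0.68, for Ndufa4 of complex IV, and 1.09, for Ndufb10 of complex I, which correspond to ratios of 0.623 and 2.13.

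**Figure D1:**
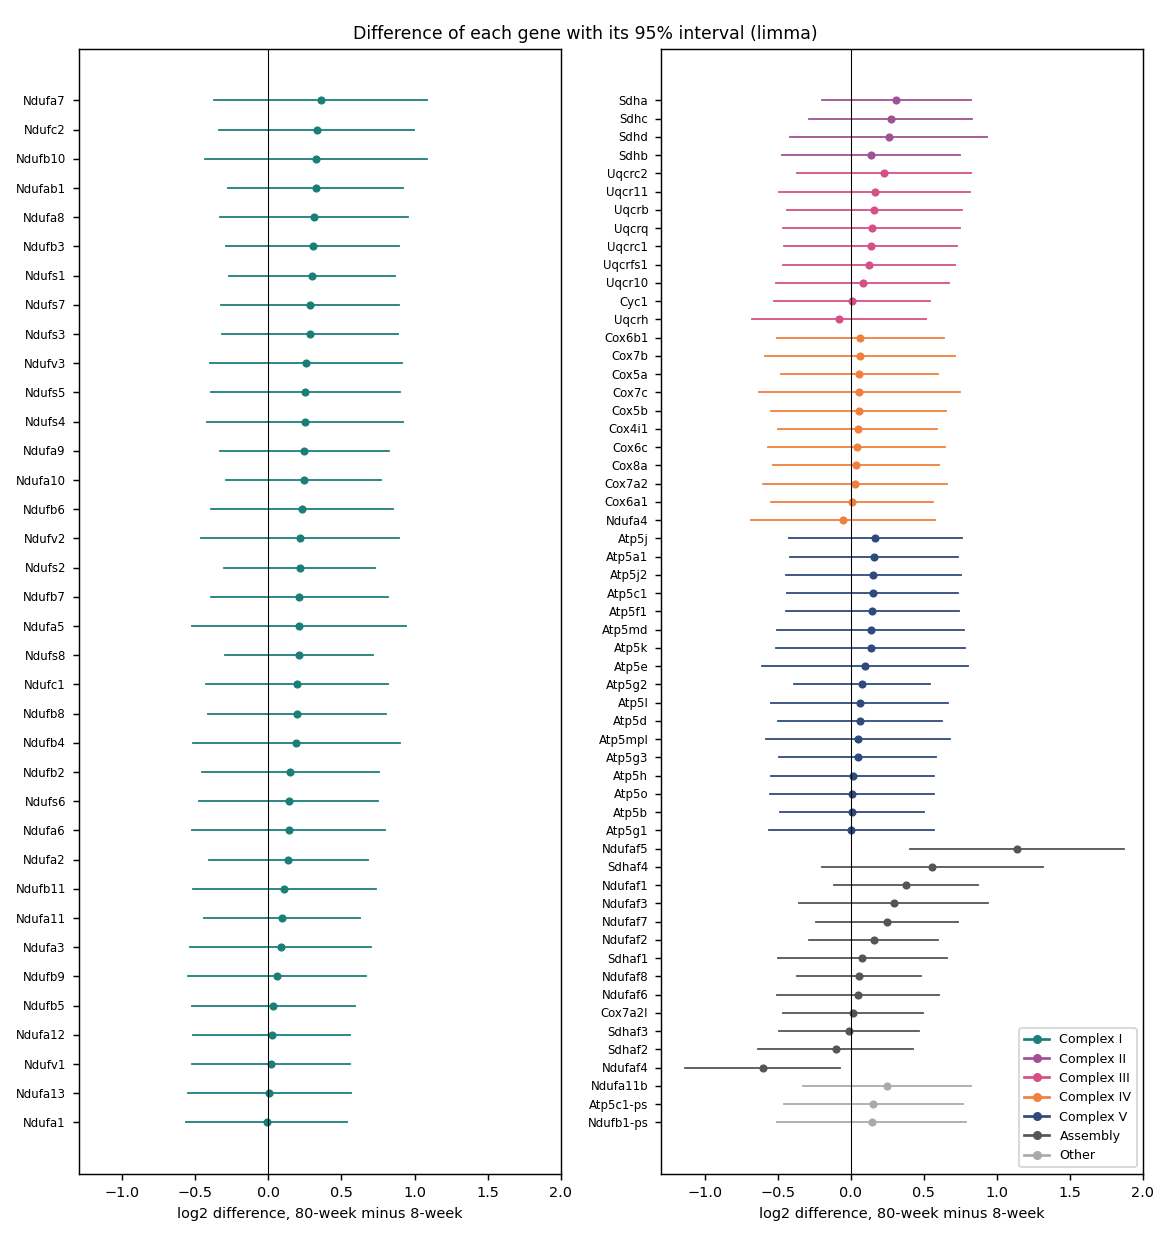
Log2 difference (80-week minus 8-week) of the tested genes without the complex IV tissue isoforms, with complex I on the left and the other complexes, assembly factors and copies on the right; points are estimates and bars 95% intervals. Of these genes, 2 assembly factors, Ndufaf5 at 1.14 and Ndufaf4 at -0.60, have intervals that leave out 0, and the other intervals span 0.

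The spread of the subunits lay within the 8-week group. For the 77 liver subunits the median range over the 4 arrays was 0.26 at 80 weeks and 1.18 at 8 weeks, against 0.63 and 0.89 over all genes tested. The mean of the 77 gene-centred levels was 0.07, -0.02, 0.16 and 0.07 on 80-week replicates 1 to 4, and -0.15, -0.78, 0.27 and 0.38 on 8-week replicates 1 to 4. Replicate 2 of the 8-week group was thus far below the other arrays and replicates 3 and 4 above them, with the 80-week arrays between. In 73 of the 77 genes all 4 of the 80-week arrays fell inside the range of the 8-week arrays, which held for 22.4% of all genes tested. In 76 of 77 the 8-week replicate 2 was the lowest of the 8 arrays, against 35.1% of all genes tested. The order with 8-week replicates 1 and 2 lowest and 3 and 4 highest was seen in 31 of 77, or 40.3%, against 2.58%. These patterns were chosen with the values known and are descriptions.

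**Figure D2:**
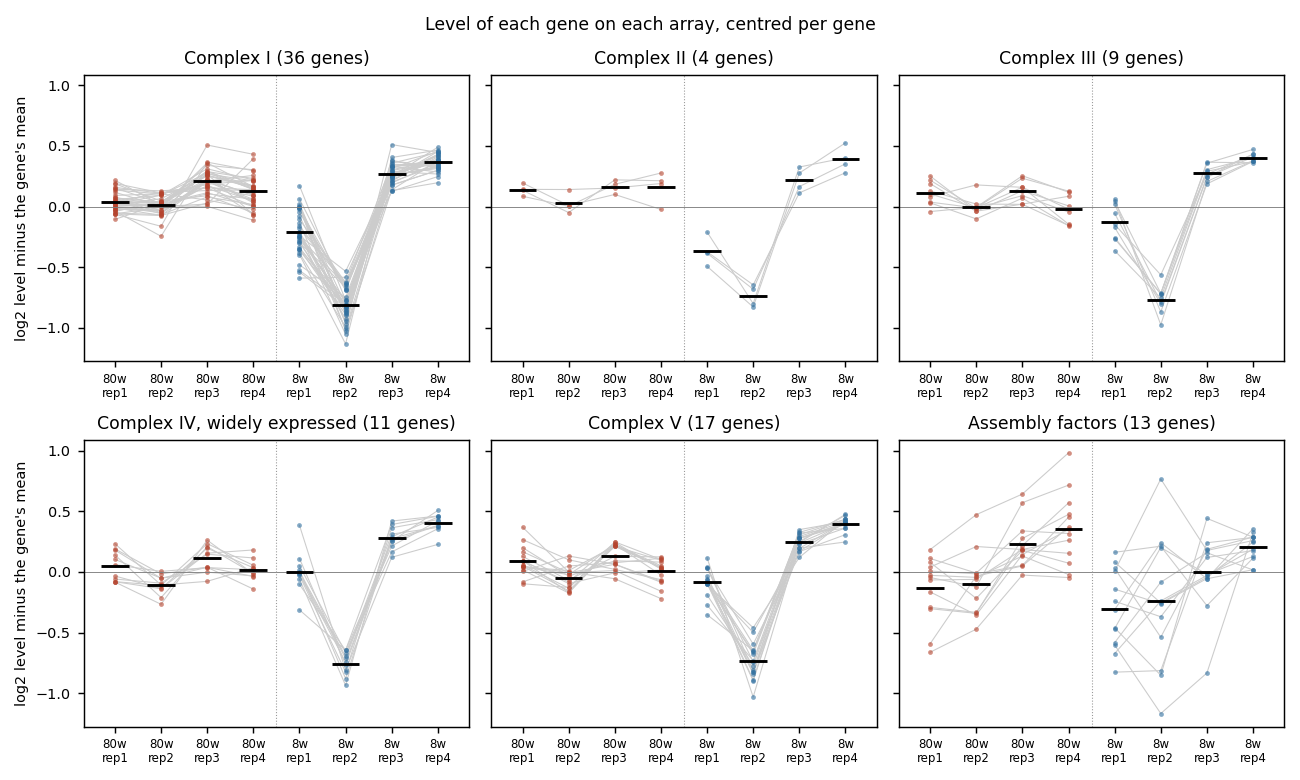
Level of each gene minus its mean over the 8 arrays (log2), by complex and for the assembly factors, with 80-week arrays on the left and 8-week arrays on the right of each panel; points are genes, grey lines join the arrays of a gene, and black bars are means. In complexes I to V the 8-week replicate 2 lies lowest, with means from -0.74 to -0.81, and the 80-week arrays lie close together, whereas the assembly factors scatter.

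Part of this pattern went with brightness and with the scaling of the arrays. Of the 77 genes, 67 were in the top decile by level of the genes tested, where 8-week replicate 2 was the lowest array in 65% of genes and the 80-week arrays fell inside the 8-week range in 35.9%. That array also had the highest 75th percentile, 352.8 intensity units, which is subtracted from its values. With no scaling between arrays, a setting added after the data were seen, the subunits' median range was 0.80 at 80 weeks and 0.29 at 8 weeks, and 8-week replicate 2 was lowest in 1 gene of 77. With quantile scaling the ranges were 0.22 and 0.59, and that array was lowest in 64 of 77, against 29.2% of all genes. Cox6a1, a widely expressed complex IV subunit, shows this in its unscaled intensities, which were 123580, 154170, 162380 and 192610 at 80 weeks and 167590, 161880, 165730 and 170810 at 8 weeks. Its 8-week intensities lay close together, and its 80-week intensities on both sides of them.

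**Figure D3:**
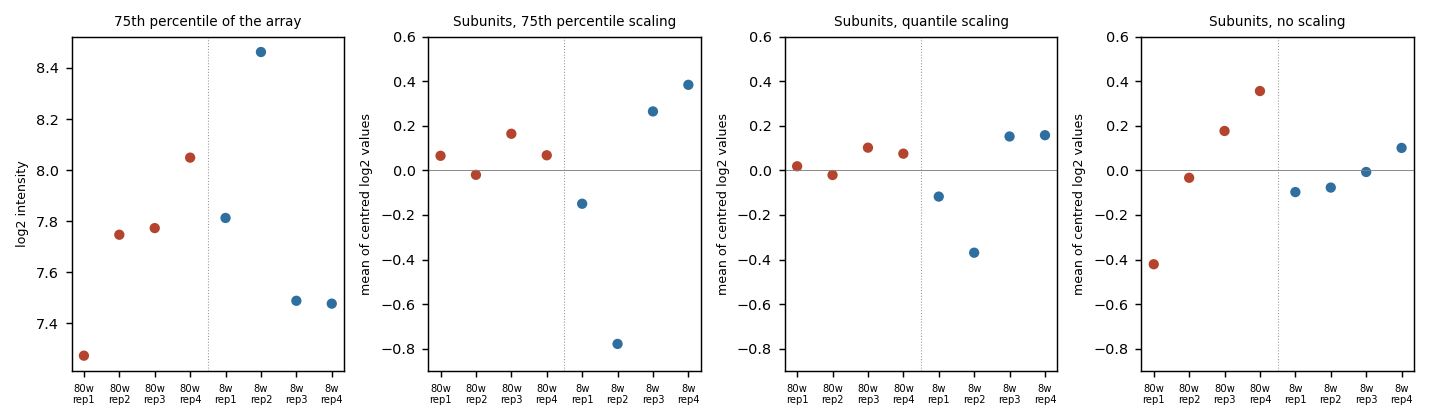
The 75th percentile of each array (log2 intensity, left) and the mean gene-centred log2 level of the 77 subunits under 75th percentile scaling, quantile scaling and no scaling, with 80-week arrays left of 8-week arrays. The 8-week replicate 2 has the highest percentile, and the subunits stand at -0.78 there with 75th percentile scaling, -0.37 with quantile scaling and -0.08 with none.

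Sums of marker genes also differed between these arrays. The summed level of the 8 hepatocyte markers (Alb, Ttr, Apoa1, Apob, Hnf4a, Serpina1a, Tat and Pck1), in multiples of the 75th percentile, ran from 3056 to 5048 on the 80-week arrays and from 1876 to 4276 on the 8-week arrays, with the lowest sum on 8-week replicate 2. The sum of the 6 monocyte markers, none of them below background throughout, ran from 52.3 to 134.6 on the 80-week arrays and from 64.2 to 175.7 on the 8-week arrays, with the highest sum on 8-week replicate 2. The neutrophil and cholangiocyte sums were also highest on that array, at 149.3 and 29.2. The pericentral and periportal hepatocyte, muscle, endothelial, stellate, T cell, and B and plasma cell sums were lowest there. The Kupffer cell, erythroid and fat sums were at neither end. The muscle and endothelial sums there, 0.764 and 60.2, were close to the 0.768 and 62.0 of 80-week replicate 4. Each sum is divided by its array's 75th percentile, which was highest on 8-week replicate 2, at 352.8 intensity units. Sums without this division were not examined, so a low sum there need not mean fewer cells of that type. Some markers of the neutrophil, muscle, T cell and B cell lists were above background on no array. The part of these markers in the subunits' pattern was not tested.

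Without 8-week replicates 1 and 2, the difference was negative for each of the 77 liver subunits, from -0.45 to -0.04 with a median of -0.27, where 57.5% of all genes had a negative difference. These are the 2 arrays on which the subunits stood lowest, and the 2 that remain are those on which they stood highest, so the sign follows from the levels given above. In that fit 0 of the 77 passed the adjusted threshold, against 0.0683% of all genes higher and 0.0114% lower. At an unadjusted p under 0.05, 7 of the 77 were lower and 0 higher, against 4.75% and 4.27% of all genes. The medians of the complexes were then -0.23 for I, -0.20 for II, -0.29 for III, -0.32 for IV and -0.27 for V. That of IV takes in its tested tissue isoforms, and over its 11 widely expressed genes the median was -0.33. Without 8-week replicate 1 alone the medians of complexes I to V were positive, and without replicate 2 alone those of I, III, IV and V were negative. When limma weighted the arrays by their agreement, 8-week replicates 2 and 1 received weights of 0.18 and 0.44, and the medians of complexes I to V were also negative, from -0.27 to -0.09.

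**Figure D4:**
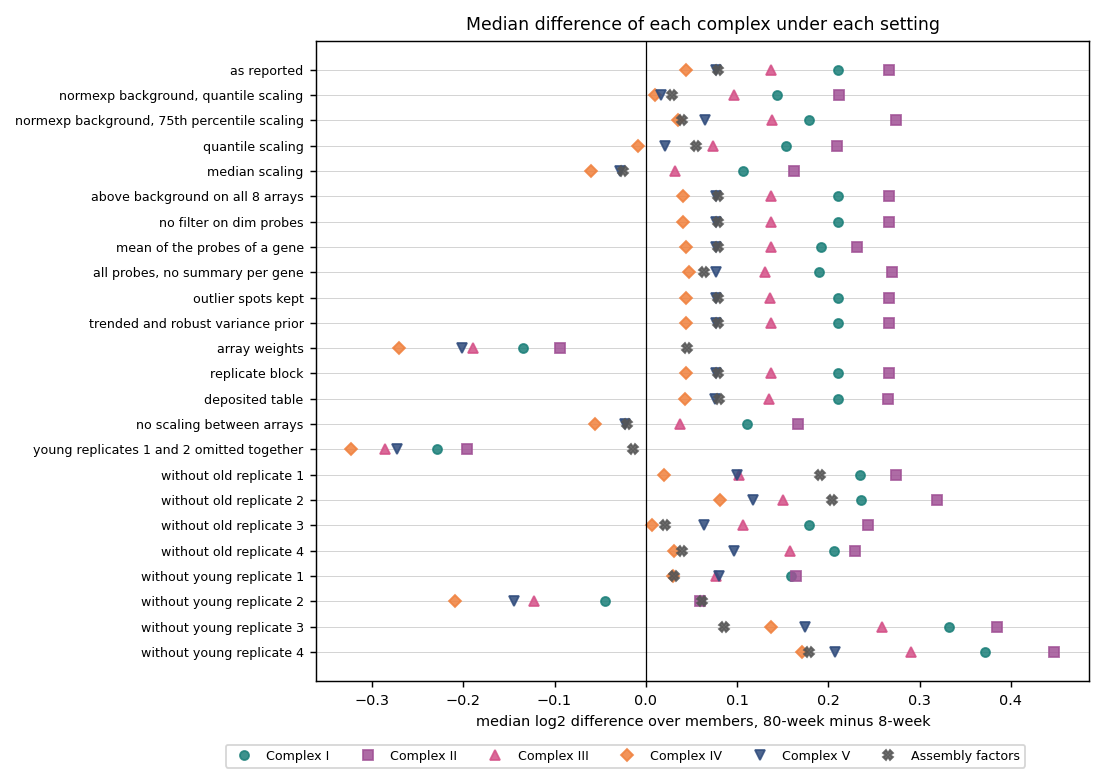
Median log2 difference (80-week minus 8-week) over the tested members of each complex and of the assembly factors, as reported and under each other setting. Among complexes I to V the median of complex II is highest and that of complex IV lowest under each setting shown, but the medians turn negative with array weights and without 8-week replicates 1 and 2, those of complexes IV and V with median scaling or none, that of IV with quantile scaling, and those of I, III, IV and V without replicate 2 alone.

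Sequence before the transcription start was read for the genes with a RefSeq promoter (mouse build GRCm38.p6, 250 bases before to 50 after the start) because the subunits' levels moved together across the arrays. Of the 101 genes, 81 matched, with 86 promoters, against 32851 promoters in all. The letters searched, on both strands, were a string of 10 letters for NRF1 (the capitals below) and its inner part CGCATGCG, CCGGAAG with the longer form CCGGAAGT for GABPA, and AAGATGGCG with the overlapping ATGGCGG for YY1. General promoter strings were searched as well, namely TATAAA for the box of that name, GGGCGG for the binding of Sp1, CCAAT for the binding of NF-Y and TGACGTCA for the cyclic AMP response. NRF1, GABPA and YY1 are transcription factors known to act on many genes for respiratory subunits. The full NRF1 string occurred in 8.14% of the members' promoters and 0.971% of all promoters. CCGGAAG occurred in 25.6% of the members' promoters against 8.86% of all, and AAGATGGCG in 9.30% against 1.40%. Any of these 3 strings was present in 38.4% of the members' promoters and 10.8% of all. Among the 81 genes with a promoter, 68 were subunits of complexes I to V. Of the 68, 5 held the full NRF1 string, 17 CCGGAAG and 7 AAGATGGCG, against 7, 22 and 8 of the 81. The remaining matches were in assembly factors, so the strings were not confined to the subunits. The part of these strings in the levels was not tested. The other forms gave 12.8% against 1.87% for the inner NRF1 part, 16.3% against 4.05% for ATGGCGG, and 5.81% against 3.89% for CCGGAAGT, where the gap was much smaller than for CCGGAAG. Of the general strings, the shares were 11.6% and 13.6% for TATAAA, 46.5% and 35.7% for GGGCGG, 41.9% and 37.4% for CCAAT, and 4.65% and 1.79% for TGACGTCA. A match is a description of letters and not of binding, and these shares are given without a test.

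The stretches below show the NRF1 string, in capitals, in the promoters of 5 genes where it lies before the start, 5′ to 3′ on the gene's strand. They come from a subunit of complex I, of complex IV, a pair from complex V, and an assembly factor. Their positions are chr17:56717682-56717731 (+ strand) for Ndufa11, chr5:115349091-115349140 (- strand) for Cox6a1, chr15:102671060-102671109 (- strand) for Atp5g2, chr5:108434420-108434469 (- strand) for Atp5k and chr4:24897950-24897999 (+ strand) for Ndufaf4.
Ndufa11: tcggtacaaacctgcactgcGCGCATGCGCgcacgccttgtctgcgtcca
Cox6a1: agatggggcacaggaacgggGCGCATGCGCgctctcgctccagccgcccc
Atp5g2: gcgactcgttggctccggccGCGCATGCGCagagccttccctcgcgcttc
Atp5k: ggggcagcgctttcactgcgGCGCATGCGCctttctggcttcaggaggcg
Ndufaf4: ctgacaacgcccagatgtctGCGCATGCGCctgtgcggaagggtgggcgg

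Complex I, the largest of the complexes, had 36 genes as grouped here, without Ndufb1-ps, and all were tested. Of these, 35 had a positive difference and 1 a negative one, from -0.01 for Ndufa1 to 0.36 for Ndufa7. The median was 0.22 for the 7 core subunits, which carry the flavin and iron-sulfur centres, and 0.19 for the 29 accessory subunits. The mean gene-centred levels were 0.04, 0.01, 0.21 and 0.12 on the 80-week arrays and -0.21, -0.81, 0.27 and 0.37 on the 8-week arrays, so the 8-week group enclosed the 80-week group.

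Ndufs1, an iron-sulfur subunit of the NADH-oxidising module, had levels of 5.17, 5.19, 5.27 and 5.30 at 80 weeks and 4.49, 4.50, 5.34 and 5.40 at 8 weeks. Its 8-week replicates 1 and 2 were low and replicates 3 and 4 above each 80-week array. The difference was 0.30 (SE 0.25, 95% interval -0.27 to 0.87, adjusted p = 0.593).
Ndufab1, which is also the mitochondrial acyl carrier protein, had 6.62, 6.69, 6.91 and 6.82 at 80 weeks and 6.12, 5.85, 6.86 and 6.92 at 8 weeks, a difference of 0.32 (SE 0.27, 95% interval -0.28 to 0.92, adjusted p = 0.581). The same 2 arrays were low for it. Ndufb3 and Ndufc2, accessory subunits of the membrane arm, differed by 0.30 (SE 0.26, adjusted p = 0.605) and 0.33 (SE 0.30, adjusted p = 0.616). Without 8-week replicates 1 and 2 the 4 differences were -0.14 for Ndufs1, -0.13 for Ndufab1, -0.13 for Ndufb3 and -0.19 for Ndufc2.

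Complex II, succinate dehydrogenase, is the only one of the complexes that also belongs to the tricarboxylic acid cycle, and each of its 4 subunits is encoded in the nucleus. Sdha, the flavin-bearing subunit, had levels of 5.87, 5.87, 5.88 and 5.91 at 80 weeks and 5.35, 5.08, 5.84 and 6.003 at 8 weeks. The 80-week arrays had a range of 0.05, while the 8-week arrays spread to both sides of them. Its difference was 0.31 (SE 0.23, 95% interval -0.20 to 0.82, adjusted p = 0.528). The other differences were 0.14 for the iron-sulfur subunit Sdhb, 0.27 for the membrane anchor Sdhc and 0.26 for the anchor Sdhd, with adjusted p-values of 0.827, 0.619 and 0.698. Without 8-week replicates 1 and 2 each of the 4 was negative, from -0.29 to -0.04.

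Complex III had 9 genes, of which 8 had a positive difference and 1, the hinge protein Uqcrh, a negative one of -0.08. Uqcrc2, a core protein, had levels of 6.49, 6.38, 6.62 and 6.51 at 80 weeks and 6.02, 5.63, 6.68 and 6.76 at 8 weeks, a difference of 0.23 (SE 0.27, 95% interval -0.37 to 0.82, adjusted p = 0.702). The groups overlapped, with the 8-week arrays both lowest and highest. Uqcrb, Uqcr11 and Uqcrq, small accessory subunits, differed by 0.16, 0.16 and 0.14, and Cyc1, cytochrome c1, which hands electrons to cytochrome c, by 0.01 (SE 0.24).

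Complex IV had 11 widely expressed genes, whose differences lay between -0.05, for Ndufa4, and 0.06, for Cox6b1, with a median of 0.05. Ndufa4 was first described in complex I and is now assigned to complex IV. Cox4i1, the widely expressed form of the largest nuclear subunit, had levels of 7.99, 7.95, 8.30 and 8.12 at 80 weeks and 8.12, 7.40, 8.23 and 8.42 at 8 weeks, a difference of 0.05 (SE 0.24, 95% interval -0.50 to 0.59, adjusted p = 0.94). The 8-week replicate 2 was again the lowest array and replicate 4 the highest. Over all tested complex IV genes, tissue isoforms included, the median was 0.04 as reported, but its sign was negative under quantile, median and no scaling.

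Complex V had 17 genes, each with a positive difference, from 0.00 for Atp5g1, a c-ring subunit, to 0.17 for Atp5j, the coupling factor F6. The F1 head subunits had a median of 0.10 and the subunits of the membrane part and stalks 0.07. Atp5j had levels of 6.39, 6.15, 6.28 and 6.27 at 80 weeks and 6.09, 5.36, 6.36 and 6.60 at 8 weeks, a difference of 0.17 (SE 0.26, 95% interval -0.42 to 0.76, adjusted p = 0.781). For Atp5a1, the alpha subunit of the head, and Atp5c1, the gamma subunit of the rotor, the differences were 0.16 and 0.15. With median scaling 7 of the 17 had a positive difference and 10 a negative one. Atp5b, the catalytic beta subunit, had a difference of 0.01 (95% interval -0.49 to 0.50), and its levels were 8.45, 8.27, 8.29 and 8.12 at 80 weeks and 8.18, 7.82, 8.40 and 8.71 at 8 weeks.

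The tissue-restricted genes of complex IV did not follow the others. Cox6a2 and Cox8b replace Cox6a1 and Cox8a in skeletal and heart muscle, and Cox8b and Cox7a1 are also known from brown fat. Cox8b had levels of -2.98, 0.22, -0.21 and 1.20 at 80 weeks and -5.33, -5.84, 1.96 and -4.94 at 8 weeks, and was above background on 3 of the 4 80-week arrays and on 1 of the 4 8-week arrays. It entered the test through those arrays. The 8-week arrays lay at -4.94 or lower except for replicate 3, which was the highest of all 8. The difference was 3.09 (SE 1.64, 95% interval -0.59 to 6.78, adjusted p = 0.41), so the interval spans 0.

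The single high 8-week array carried muscle transcripts. On 8-week replicate 3 the summed level of 8 muscle markers was 35.8, against 0.764 to 1.04 on the other 8-week arrays and 0.768 to 0.916 on the 80-week arrays. Among those 8, Acta1, Myh1, Ckm, Tnnt3, Myl1 and Mb had levels of 2.51, 2.01, 0.39, 3.67, 2.69 and 2.34 there, and the heart myosin Myh6 was above background on no array. Cox6a2 stood at 2.62 on that array, while its levels were -2.97, -2.81, -5.33 and -4.06 at 80 weeks and -3.84, -2.78 and -3.35 on the other 8-week arrays. Cox7b2, a relative of Cox7b, was above background on that array alone, at -0.29. The part of the muscle transcripts in these values was not tested. Without 8-week replicate 3 the Cox8b difference was 4.93 (SE 0.84, adjusted p = 0.0664), and none of the remaining 8-week arrays was above background for it, so its size rests on dim signal.

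The 80-week arrays on which Cox8b was above background did not carry these muscle transcripts. They did have high levels of Cidea, a lipid droplet protein known from brown fat and from fatty liver, which stood at 4.19, 6.9998, 7.44 and 6.46 on the 80-week arrays and -2.85, -2.49, -2.02 and -3.42 on the 8-week arrays. The lowest 80-week array for Cidea was also the lowest for Cox8b. The sum of the 8 brown fat and adipocyte markers ran from 58.6 to 239.6 on the 80-week arrays and from 38.3 to 54.4 on the 8-week arrays, but without Cidea that of the other 7 ran from 35.4 to 66.2 and from 38.1 to 54.3, and the ages overlapped. Ucp1, which defines brown fat, was the only one of the 8 that was above background on no array. Adipoq was above background on 0 of the 80-week arrays, and so on 8-week arrays only. Their part in the Cox8b levels was not tested.

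Cox7a1, the muscle form of Cox7a2, was above background on every array, at 0.93, 1.09, 1.86 and 1.28 at 80 weeks and 1.03, 0.37, 2.39 and 1.502 at 8 weeks, with the highest value again on 8-week replicate 3. Its difference was -0.03 (SE 0.40, adjusted p = 0.975), and that of Cox7a2 was 0.03. Cox6b2, known from testis, had levels of -0.27, -0.44, -0.51 and -0.72 at 80 weeks and 0.21, -0.40, 0.60 and 0.27 at 8 weeks. Of its 8-week arrays, 3 were above each 80-week array and replicate 2 lay among the 80-week arrays. Its unscaled intensities were 128, 158, 154 and 160 at 80 weeks and 260, 268, 273 and 216 at 8 weeks. The place of replicate 2 thus depended on the scaling. The difference was -0.66 (SE 0.24, 95% interval -1.19 to -0.13, adjusted p = 0.305). With array weights it was -0.92, the one member past the threshold under any setting (adjusted p = 0.0413). Cox4i2, known from lung, and Ndufa4l2, a hypoxia-responsive relative of Ndufa4, differed by -0.06 and 0.05. Cox8c, known from testis, was above background on no array.

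**Figure D5:**
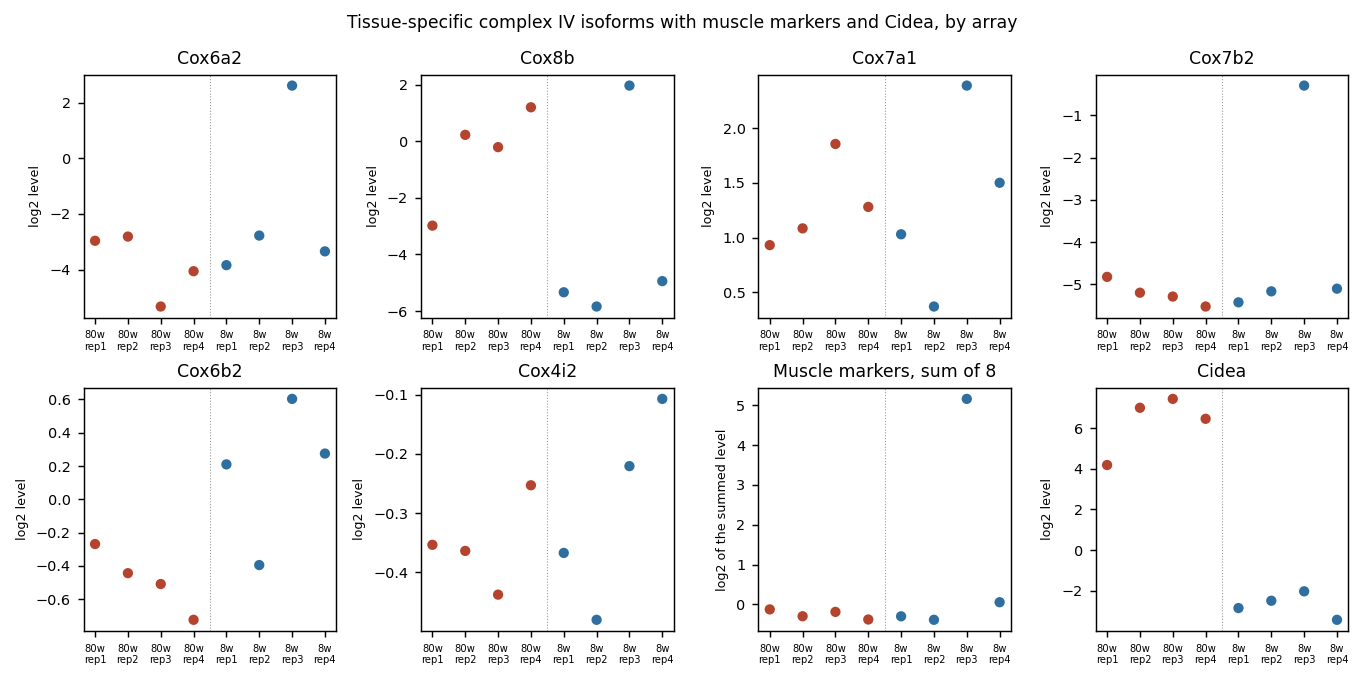
Log2 levels of 6 tissue-restricted complex IV genes and of Cidea, and the log2 of the summed level of 8 muscle markers, by array, with 80-week arrays on the left and 8-week arrays on the right of each panel. Cox6a2, Cox8b, Cox7a1 and Cox7b2 are highest on 8-week replicate 3, where the muscle markers sum to 35.8, and Cox8b and Cidea are both higher on 80-week replicates 2 to 4 than on 80-week replicate 1.

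The promoters of the paired forms Cox8a and Cox8b are shown from 75 bases before to 25 after the start, at chr19:7217592-7217691 (- strand) for Cox8a and chr7:140900422-140900521 (- strand) for Cox8b. The capitals mark CCGGAAG as read on the opposite strand. Cox8a, the form found across tissues, has it in this stretch, and Cox8b has none there.
Cox8a: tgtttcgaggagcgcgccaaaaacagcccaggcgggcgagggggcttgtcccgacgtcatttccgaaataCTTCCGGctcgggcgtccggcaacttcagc
Cox8b: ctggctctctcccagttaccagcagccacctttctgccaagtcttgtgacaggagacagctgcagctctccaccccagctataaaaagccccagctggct

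Of the 13 assembly and supercomplex factors, 10 had positive and 3 negative differences, with a median of 0.08. The 8-week replicate 2 was the lowest array in 4 of 13, or 30.8%, against 35.1% of all genes tested. On average 8-week replicates 1 and 2 were the lowest arrays, at -0.31 and -0.24, as for the subunits. The highest was 80-week replicate 4 at 0.36, whereas the 77 subunits stood highest on 8-week replicate 4. The factors' sign count was 6 positive and 7 negative with median scaling, which shifts all genes alike. Relative to the median of all genes, the factors' median was 0.06 with either scaling. Ndufaf5, known in human cells as an enzyme that modifies a complex I subunit during assembly, had levels of 1.10, 1.39, 1.56 and 1.90 at 80 weeks and 0.32, -0.25, 0.09 and 1.25 at 8 weeks. The groups overlapped at 8-week replicate 4. The difference was 1.14 (SE 0.32, 95% interval 0.41 to 1.87, adjusted p = 0.226). Another probe of Ndufaf5 had -0.45, -0.32, -0.05 and 0.25 at 80 weeks and -0.02, -0.09, -0.21 and 0.17 at 8 weeks, a difference of -0.10 (SE 0.21) in a fit of all probes. The 2 probes lie on mouse chromosome 2 of build mm9, at 139996598 to 139996657 for the brighter one and between 140014595 and 140019324 for the other, so they read different parts of the gene.

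Ndufaf4, another complex I assembly factor, had levels of 0.67, 0.86, 1.31 and 1.29 at 80 weeks and 1.34, 2.10, 1.51 and 1.59 at 8 weeks. Each 80-week array was below each 8-week array. The difference was -0.60 (SE 0.24, 95% interval -1.13 to -0.07, adjusted p = 0.322). Its highest array was 8-week replicate 2, the lowest one for the subunits. Sdhaf4, which assists complex II assembly, differed by 0.56 (SE 0.34, 95% interval -0.20 to 1.32, adjusted p = 0.455), with levels of 2.67, 2.60, 3.29 and 3.43 at 80 weeks and 1.89, 1.91, 2.96 and 3.003 at 8 weeks. Ndufaf1, which acts early in complex I assembly, differed by 0.38 (SE 0.22, adjusted p = 0.442).

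Probes of one gene did not always give like differences. Of 33 genes with more than 1 tested probe, 12 had probes of opposite sign. The median spread between the probes' differences was 0.10, beside a median difference of 0.14 over all tested members. The widest spreads were 1.24 for Ndufaf5, 1.04 for Atp5f1 and 0.80 for Sdha. Atp5f1, the b subunit of the peripheral stalk of complex V, differed by 0.15 at its brightest probe, but by -0.89 (SE 0.20, adjusted p = 0.138, fit of all probes) at a dim probe placed elsewhere on chromosome 3 (mm9 105761646 to 105761705). The levels there were -1.75, -2.17, -2.27 and -2.32 at 80 weeks and -0.98, -1.32, -1.23 and -1.41 at 8 weeks, and the groups did not overlap. This was the lowest adjusted p of any member's probe, and the brighter probes of the same gene did not show it.

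Subunits encoded in mitochondrial DNA were read by 10 probed genes of 13. Each had a positive difference, from 0.02 to 0.34 with a median of 0.12, where 52% of all genes had a positive difference. Of these genes 0 passed the threshold. Their mean gene-centred levels were 0.62, -0.01, -0.10 and -0.27 on the 80-week arrays and -0.06, -0.69, 0.23 and 0.29 on the 8-week arrays. The lowest array was 8-week replicate 2, as for the nuclear subunits, but the highest was 80-week replicate 1, where the nuclear subunits stood at 0.07. The mean of 80-week replicates 2 to 4 lay below the 8-week mean, so the positive sign on average rests on 80-week replicate 1. These genes were not refitted without that array. ND1, a membrane-arm core subunit of complex I, had 7.03, 6.43, 6.27 and 6.36 at 80 weeks and 5.76, 5.51, 6.76 and 6.72 at 8 weeks, a difference of 0.34 (SE 0.33, 95% interval -0.40 to 1.07, adjusted p = 0.646).

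Other genes of the pathway were counted in lists chosen with earlier results of these data known. None of their genes passed the adjusted threshold. Among 19 genes for electron carriers, ubiquinone synthesis and exchange of nucleotides and phosphate, 16 had positive and 3 negative differences, with a median of 0.29, where 52% of all genes had a positive difference. Their mean gene-centred levels were 0.08, 0.11, 0.24 and 0.15 on the 80-week arrays and -0.41, -0.56, 0.17 and 0.21 on the 8-week arrays, so the arrays low for the subunits were low for them too. Of the 19, 3 were higher at an unadjusted p under 0.05, against 7.91% of all genes. These were Coq2, Coq8a and Coq9, which act in ubiquinone synthesis. Coq2 had 4.11, 4.11, 4.47 and 4.45 at 80 weeks and 3.24, 3.44, 3.98 and 3.91 at 8 weeks, with no overlap and a difference of 0.64 (SE 0.22, 95% interval 0.14 to 1.14, adjusted p = 0.294). Coq9 and Coq8a differed by 0.86 and 1.29, with adjusted p-values of 0.305 and 0.337.

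Of 26 tested assembly factors outside the names above, 21 had positive and 5 negative differences, with a median of 0.17, and 8-week replicates 1 and 2 were again their lowest arrays on average. Nubpl, which delivers iron-sulfur clusters to complex I, differed by 0.85 (SE 0.31, 95% interval 0.16 to 1.53, adjusted p = 0.305). In the tricarboxylic acid cycle 11 of 13 genes had positive and 2 negative differences, with a median of 0.19. Their mean gene-centred levels were 0.07, 0.07, 0.16 and 0.13 on the 80-week arrays and -0.42, -0.59, 0.29 and 0.28 on the 8-week arrays, and 61.5% of them had 8-week replicates 1 and 2 lowest and 3 and 4 highest, against 2.58% of all genes. For these genes each 80-week array lay on average below 8-week replicates 3 and 4, so the positive median went with 8-week replicates 1 and 2. None of the lists of other pathway genes was refitted without those arrays. Of 12 regulators of mitochondrial genes, 6 had positive and 6 negative differences. The coactivators Ppargc1b and Ppargc1a differed by 1.598 and 1.16 and their relative Pprc1 by -1.10, with adjusted p-values of 0.299, 0.329 and 0.291. Ppargc1a had levels of 3.07, 1.92, 3.61 and 2.96 at 80 weeks and 2.20, 0.48, 2.24 and 2.03 at 8 weeks, and the groups overlapped.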

How the data were processed

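The intensity values are those of the deposited scanner files, which Feature Extraction 10.7.3.1 had background-corrected per the file headers, whereas version 9.1 is named per the submitters' processing notes. The table that the authors deposited, also of intensity values, equalled the processed signal within 1% for 100% of 56605 probes, so it held no scaling between arrays. It was an alternative only, and it had 0 columns of other samples.

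The processed signal was taken as log2, outlier spots (59 to 97 per array) were dropped, repeated spots were averaged, and the 75th percentile of the non-control probes on the same array was subtracted. A probe was tested when well above background on at least 4 of 8 arrays, and the brightest tested probe stood for its gene. The test of age was limma's (version 3.58.1, lmFit and eBayes, in R 4.3.3, with Benjamini-Hochberg adjustment over 17565 genes, threshold 0.05). The fit was checked on simulated data in which each gene varied independently, so the check does not cover genes that move together between arrays.

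The members, gene lists, tests and naming rule were chosen with earlier results of these data known. Named genes are the 4 with the smallest p in each complex and among assembly factors and copies, the complex IV tissue isoforms with their counterparts, the extremes of a range or count, and up to 4 genes of a list. Atp5b, Cyc1 and the dim probe of Atp5f1 were added after their values were seen. Array positions are on build mm9, and exon annotation was not used here. Promoters are RefSeq's on GRCm38.p6. The alternatives were normexp background correction (offset 50), quantile, median and no scaling, other filters and probe summaries, retained outlier spots, a trended and robust prior, weights per array, a block for the replicate number, the deposited table, and the omission of arrays. The number of arrays limits the precision.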

Additional observations from a re-analysis of the deposited data

Results flagged for a closer look

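In 6 of 84 groups of 4 values examined, or 7.14%, 1 array lay far from the other 3, by Dixon's criterion at the 95% level. Chance gives about 5% of groups. On 8-week replicate 3, 3 complex IV genes stood above the other 8-week arrays. They were Cox6a2 at 2.62, Cox8b at 1.96 and Cox7b2 at -0.29, and the summed level of 8 muscle markers was 35.8 on the same array. On the 80-week arrays, Atp5j2, the f subunit of complex V, was low on replicate 2 at 6.76, with the others at 6.95. Atp5c1, the gamma subunit, was high on 80-week replicate 3 at 8.03, with the others between 7.83 and 7.86.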

How the results depend on the processing

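The number of tested genes of the pathway past the threshold stayed at 0 in every setting tried but array weights, where 1 was lower (Cox6b2, adjusted p = 0.0413). The medians of complexes I, II, III, IV and V were -0.13, -0.095, -0.19, -0.27 and -0.20 with array weights, and -0.23, -0.20, -0.29, -0.32 and -0.27 without 8-week replicates 1 and 2 together, when that of the assembly factors was -0.014. For complexes IV and V and the assembly factors they were -0.060, -0.028 and -0.025 with median scaling and -0.056, -0.023 and -0.020 with no scaling, a setting added after the data were seen. For complex IV the median was -0.0089 with quantile scaling. Leaving out 1 array at a time gave medians from -0.045 to 0.37 for complex I, 0.060 to 0.45 for II, -0.12 to 0.29 for III, -0.21 to 0.17 for IV, -0.14 to 0.21 for V and 0.020 to 0.20 for the assembly factors, with the lowest of complexes I to V without 8-week replicate 2. It gave 25 to 69 genes higher and 2 to 14 lower over all genes, and 0 to 0 members.

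Over all genes, 58 were higher and 5 lower at 80 weeks. The count lower was 8 with quantile scaling, 13 with median scaling, 8 with no filter on dim probes, 9 with the mean of a gene's probes, 8 over all probes and 8 with a trended and robust prior. It was 20 higher and 1 lower among genes above background on all arrays, 136 and 36 with array weights, and 12 and 2 without 8-week replicates 1 and 2. Replicate numbers are shared by both ages with no stated pairing, and same-numbered arrays correlated at 0.03, 0.14, 0.11 and 0.10 in their deviations, so the numbers were not taken to pair the samples. With the replicate number as a block 17 genes were lower, and 0 members passed.

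Of 713 differences of the named genes under other settings, 614 kept their direction and their side of the threshold, 1 passed it and 98 changed sign, none of them past the threshold. With array weights the changed signs were Ndufab1 -0.016, Ndufs1 -0.035, Ndufb3 -0.048, Ndufc2 -0.065, Sdhc -0.033, Sdhd -0.16, Sdhb -0.22, Uqcrc2 -0.12, Uqcrb -0.19, Uqcr11 -0.13, Uqcrq -0.16, Cox6b1 -0.24, Atp5j -0.15, Atp5a1 -0.19, Atp5j2 -0.16, Atp5c1 -0.17, Ndufa4l2 -0.0063, Cox4i1 -0.17, Cox6a1 -0.29, Cox7a2 -0.30, Cox7b -0.28 and Cox8a -0.26. Without 8-week replicates 1 and 2 they were Ndufab1 -0.13, Ndufs1 -0.14, Ndufb3 -0.13, Ndufc2 -0.19, Sdha -0.039, Sdhc -0.12, Sdhd -0.27, Sdhb -0.29, Uqcrc2 -0.22, Uqcrb -0.25, Uqcr11 -0.21, Uqcrq -0.21, Cox6b1 -0.29, Atp5j -0.21, Atp5a1 -0.26, Atp5j2 -0.23, Atp5c1 -0.26, Cox4i1 -0.24, Cox6a1 -0.33, Cox7a2 -0.38, Cox7b -0.34 and Cox8a -0.31. With median scaling they were Cox6b1 -0.041, Ndufa4l2 -0.053, Cox4i1 -0.057, Cox6a1 -0.096, Cox7a2 -0.075, Cox7b -0.043 and Cox8a -0.070, and with no scaling Cox6b1 -0.036, Ndufa4l2 -0.048, Cox4i1 -0.052, Cox6a1 -0.092, Cox7a2 -0.070, Cox7b -0.038 and Cox8a -0.065. Quantile scaling gave Cox6a1 -0.012, Cox7a2 -0.026 and Cox8a -0.044, normexp with 75th percentile scaling Ndufa4l2 -0.00063 and Cox6a1 -0.019, and normexp with quantile scaling Ndufa4l2 -0.011 and Cox8a -0.041. Single probes gave Sdha -0.43, Ndufs1 -0.033 and Ndufaf5 -0.10. Leaving out 1 array at a time, the ranges that crossed 0 were Atp5a1 from -0.028 to 0.31, Atp5c1 from -0.084 to 0.30, Atp5j from -0.078 to 0.33, Atp5j2 from -0.098 to 0.32, Cox4i1 from -0.17 to 0.17, Cox4i2 from -0.12 to 0.0040, Cox6a1 from -0.22 to 0.13, Cox6b1 from -0.17 to 0.20, Cox7a1 from -0.35 to 0.32, Cox7a2 from -0.24 to 0.18, Cox7b from -0.22 to 0.22, Cox8a from -0.20 to 0.17, Ndufa4 from -0.32 to 0.11, Ndufa4l2 from -0.22 to 0.29, Sdhb from -0.10 to 0.30, Uqcr11 from -0.13 to 0.32, Uqcrb from -0.080 to 0.32 and Uqcrq from -0.12 to 0.29. The cause of these changes was not tested. With 4 arrays per age the SE of the difference ran from 0.21 to 0.34 over the 77 liver subunits, which sets the precision of each.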
